A study of Mus musculus with 12 samples.

Results

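The 10 genes described here serve the mineralisation of bone matrix: Alpl, Phospho1, Smpd3, Enpp1, Ank, Phex, Ifitm5, Slc13a5, Slc20a1 and Slc20a2. They were taken as a named list for matrix mineralisation and for pyrophosphate, phosphate and citrate handling. The list was drawn up with earlier results of these data known, so shares of the 10 genes called are a description. All 10 were found among the 24391 genes counted in each library. RNA was sequenced from the front of the hard palate, the bony shelf between mouth and nose, of mouse embryos at E14.5 and E16.5 (embryonic days 14.5 and 16.5). At each age, 3 Shox2-Cre;R26R-Fgf8 mutant libraries were set against 3 control libraries, which makes 12 in all. In the mutants an Fgf8 transgene is turned on by Cre expressed under Shox2 control, so the added FGF8 comes from cells of the Shox2 domain and their descendants. The controls are labelled wild type, all embryos are labelled C57BL/6, and no allele or agent is given as shared by every group. Whether a library is 1 embryo or a pool is not stated. Every library held RNA of both sexes, as given below, and so of more than 1 embryo. Whether the libraries of a group came from separate embryos is not stated either. Each p-value therefore measures the spread between libraries, which may be technical.

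Mineral in bone begins inside and around matrix vesicles, small membrane-bound bodies that osteoblasts shed into the collagen they lay down. Crystal growth needs phosphate, and inorganic pyrophosphate blocks it, so the enzymes that make, export and destroy pyrophosphate set where mineral can form. In the palate this takes place in the palatal processes of the maxilla and palatine bones, which ossify directly from mesenchyme, without a cartilage model.

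Of the 10 genes, 6 were lower in mutants at E14.5: the phosphatases and lipase Alpl, Phospho1 and Smpd3, the protease Phex, the osteoblast membrane protein Ifitm5 and the citrate carrier Slc13a5, by 2.13-fold to 3.25-fold. Slc20a1 was 1.16-fold higher, and Enpp1, Ank and Slc20a2 did not pass the test. At E16.5, Phospho1, Ifitm5 and Slc13a5 were 4.81-fold to 5.08-fold lower in mutants, Smpd3 was 1.70-fold lower and Alpl 1.24-fold lower, while Phex no longer differed beyond the spread. The mutant effect itself differed between the ages for 5 genes: it was larger at E16.5 for Phospho1, Ifitm5 and Slc13a5, and smaller for Alpl and Phex. With age, 8 genes fell in both genotypes, all but Ank and Slc20a2.

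Levels are in CPM, counts scaled to a common library total with TMM factors, and a gene was called at an adjusted p under 0.05 (edgeR quasi-likelihood test, Benjamini-Hochberg over all genes tested). At E14.5, 7 of the 10 genes were called, against 7.52% of all 16650 genes tested: 6 were lower, against 4.57% of all genes, and 1 higher, against 2.95%. At that age 8 of the 10 had groups that did not overlap, against 28.6% of all genes. At E16.5, 5 of the 10 were called, all lower, against 27.9% of 17169 genes called and 15.7% called lower, and the same 5 had groups that did not overlap, against 42.9%. The median log2 fold change of the 10 genes was -1.27 at E14.5 and -0.16 at E16.5, against 0.012 and 0.011 over all genes. The difference of the mutant effect between ages was called for 5 of the 10, against 22.3% of 17550 genes: it was below 0 for 3, against 12.4%, and above 0 for 2, against 9.97%.

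**Figure D1:**
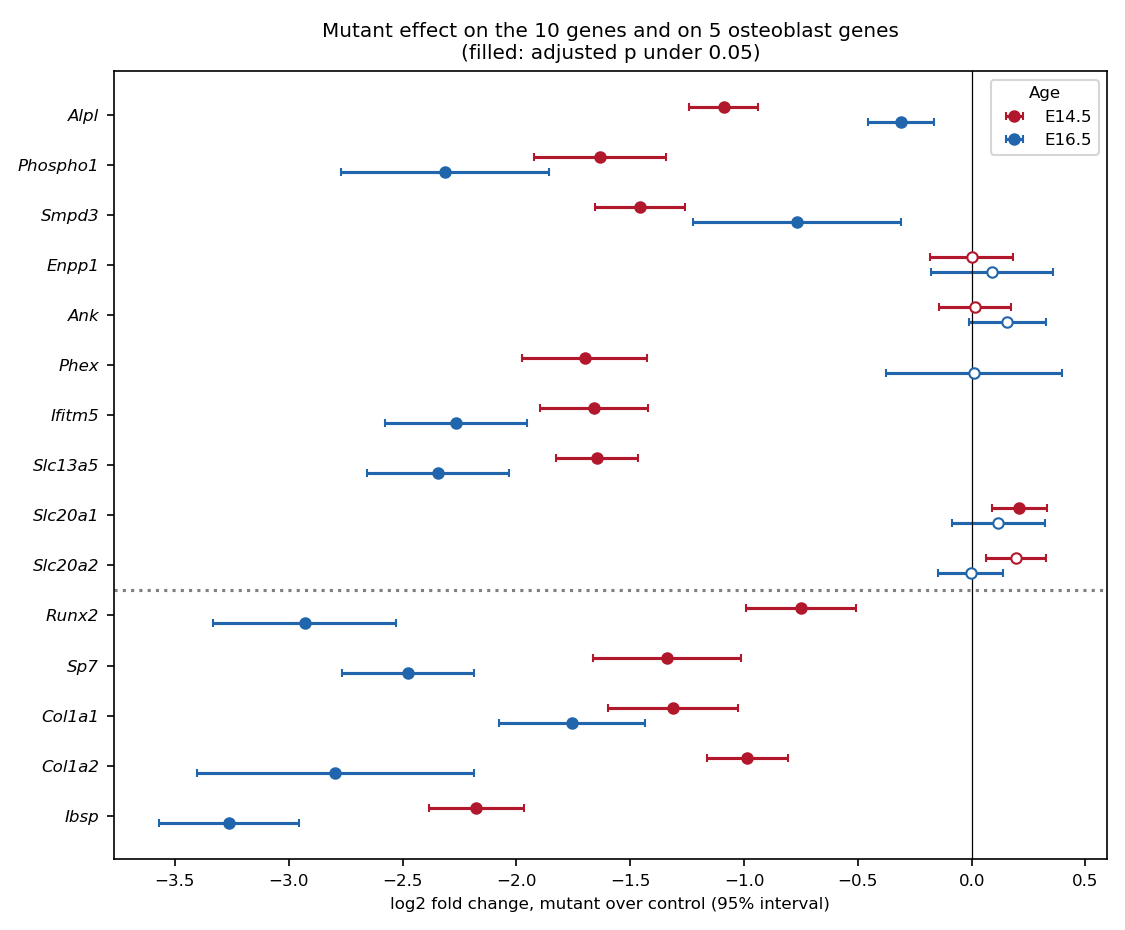
Log2 fold change of mutants over controls, with 95% intervals, for the 10 genes and 5 osteoblast genes at E14.5 and E16.5. Filled points passed an adjusted p under 0.05. Phospho1, Ifitm5 and Slc13a5 lie farther from 0 at E16.5 than at E14.5, Alpl and Phex nearer to 0, and Enpp1 and Ank on or close to 0 at both ages.

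Total counts were 76417891 to 125996587 per library, and the lowest count of any of the 10 genes was 57, for Phospho1. Fgf8 was at 10.5 to 11.1 CPM in E14.5 mutants, against 0.249 to 0.423 CPM in E14.5 controls, and at 14.0 to 17.8 CPM in E16.5 mutants, against 0.257 to 0.462 CPM in E16.5 controls, in the direction of the labels. E16.5 mutant libraries 1 and 3 stood apart. The summed level of 13 neuron markers was 382, 69.9 and 231 CPM in E16.5 mutant libraries 1, 2 and 3, against 57.0 to 61.2 CPM in E16.5 controls, and that of 8 retina markers was 115, 0.840 and 59.3 CPM, against 0.980 to 3.33 CPM. Of those markers, 11 of 13 neuron genes and 6 of 7 tested retina genes were higher in E16.5 mutants. Among all genes tested, 12.2% were called higher and 15.7% lower in mutants at E16.5, and 2.95% and 4.57% at E14.5. Cartilage markers summed to 686 to 845 CPM in E16.5 mutants, against 230 to 252 CPM in E16.5 controls, with 7 of 11 tested genes higher and 2 lower. None of these markers was at 0 in every library of a group. At E14.5, cartilage markers summed to 547 to 581 CPM in mutants, against 520.3 to 681 CPM in controls, with 5 of 12 genes higher and 2 lower. Osteoclast markers summed to 164 to 177 CPM in E14.5 mutants, against 219 to 252 CPM in E14.5 controls, without overlap, and 4 of 7 genes were lower. At E16.5 the osteoclast sums were 108 to 140 CPM in mutants, against 95.9 to 111 CPM in controls, and overlapped. Of 6 tested osteoclast genes, 2 were higher and 1 lower in E16.5 mutants. The part of these markers in the values of the 10 genes was not tested. With E16.5 mutant libraries 1 and 3 left out, the mutant arm is 1 library against 3 controls, whose spread alone enters the test, so the 5 of 10 genes called there say nothing of how mutants vary. The groups also differed in markers of sex. Xist, the RNA of the inactive X chromosome, was at 441 to 521 CPM in E14.5 mutants, against 709 to 861 CPM in E14.5 controls. At E16.5 it was at 888 to 914 CPM in mutants, against 341 to 481 CPM in controls. The Y-linked genes Ddx3y, Eif2s3y, Kdm5d and Uty summed to 138 to 163 CPM in E14.5 mutants and 36.3 to 88.1 CPM in E14.5 controls. Their sum was 89.6 to 124 CPM in E16.5 mutants and 206 to 216 CPM in E16.5 controls. Every library thus held RNA of both sexes, at levels that differed between the groups.

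The osteoblast genes were lower too, which is the setting of every value below. Of 10 osteoblast identity genes, Alpl among them, 9 were lower in mutants at E14.5 and 8 at E16.5. The other 9 summed to 7038 to 8343 CPM in E14.5 mutants, against 14918 to 18321 CPM in E14.5 controls, and to 1991 to 2595 CPM in E16.5 mutants, against 6336 to 7479 CPM in E16.5 controls. Runx2 and Sp7, the transcription factors that commit cells to the osteoblast lineage, had log2 fold changes of -0.75 and -1.34 at E14.5 and -2.93 and -2.48 at E16.5. In bulk tissue, fewer osteoblasts and less of each RNA per osteoblast cannot be told apart.

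**Figure D2:**
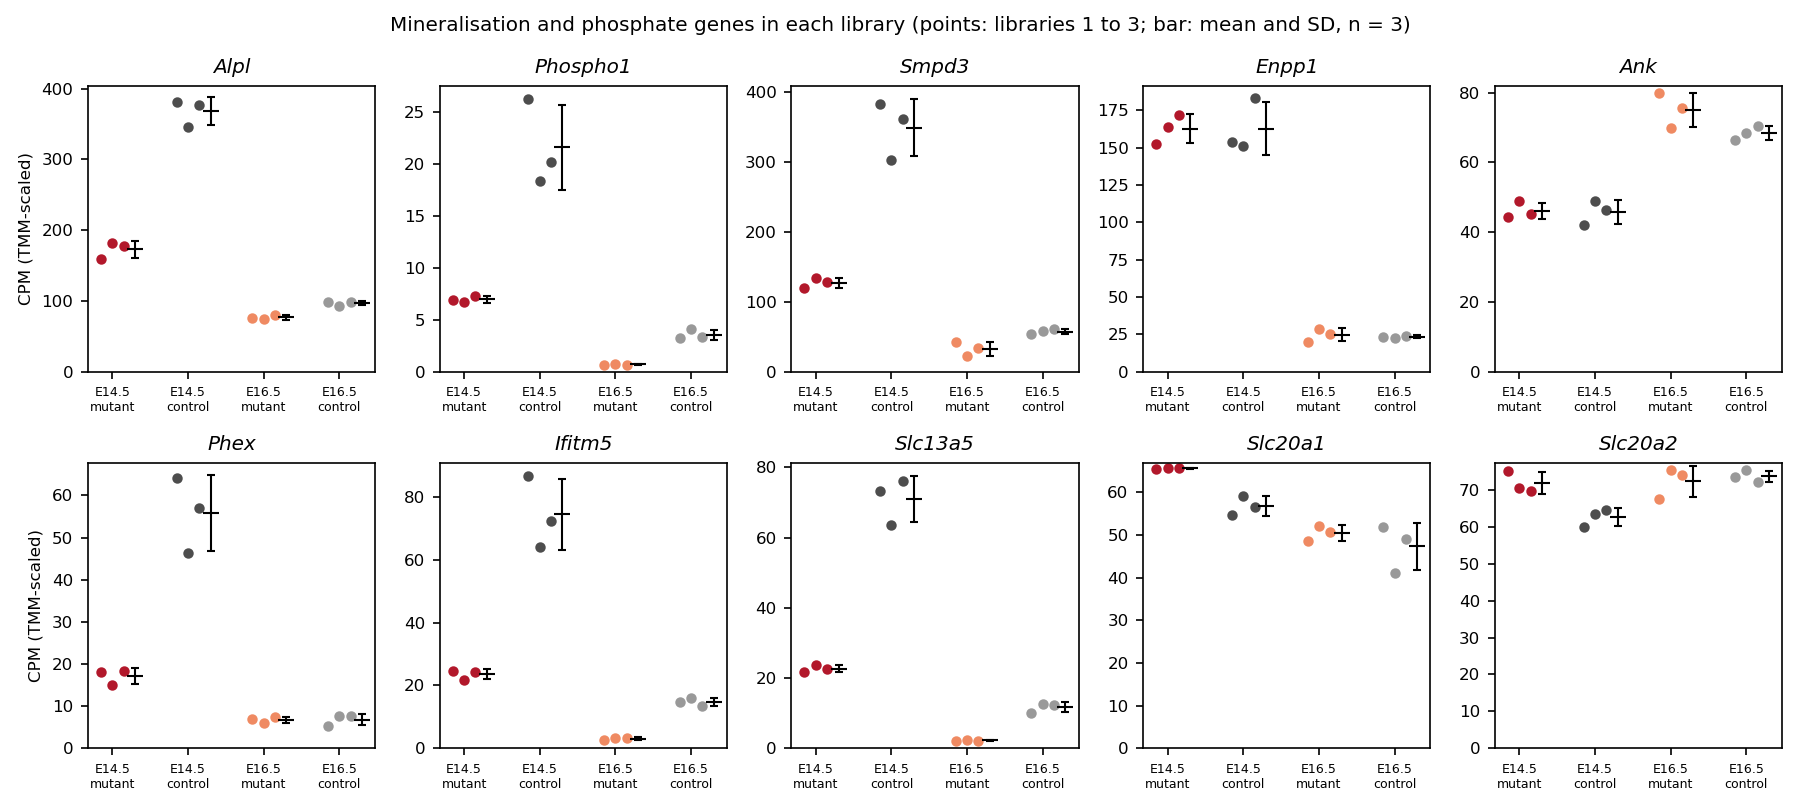
Level of each gene in CPM on a linear axis that starts at 0, with a point for each of libraries 1 to 3 and a bar for mean and SD (n = 3), mutants left of controls within each age. Alpl, Phospho1, Smpd3, Ifitm5 and Slc13a5 step down from E14.5 controls through E14.5 mutants and E16.5 controls to E16.5 mutants without overlap, while Ank and Slc20a2 are not lower at E16.5.

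Alpl encodes tissue-nonspecific alkaline phosphatase, the ectoenzyme that splits pyrophosphate and so removes the inhibitor while it releases phosphate. Alpl was at 160, 182 and 178 CPM in E14.5 mutants, against 382, 346 and 377 CPM in E14.5 controls. Every mutant library lay far below every control library, with a log2 fold change of -1.09 (SE 0.07, adjusted p = 1.13e-05). At E16.5 Alpl was at 75.6, 74.6 and 80.2 CPM in mutants, against 98.7, 93.3 and 98.4 CPM in controls. The groups were again apart, but close, with a log2 fold change of -0.31 (SE 0.06, adjusted p = 0.00744). The mutant effect was 0.76 smaller in size at E16.5 on the log2 scale (95% interval 0.56 to 0.95, adjusted p = 1.21e-04). The osteoblast genes Runx2, Sp7, Col1a2 and Ibsp went the other way, with larger mutant effects at E16.5: the differences were -2.20, -1.16, -1.83 and -1.11 on the log2 scale, and edgeR called all 4. Alpl fell with age in both genotypes, by 1.17 in mutants and by 1.93 in controls on the log2 scale.

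Phospho1 is the phosphatase inside matrix vesicles that frees phosphate from phosphocholine and phosphoethanolamine. It had the fewest counts of the 10 genes. Phospho1 was at 6.91, 6.71 and 7.30 CPM in E14.5 mutants, against 26.3, 18.4 and 20.3 CPM in E14.5 controls, and the groups did not overlap (log2 fold change -1.63, SE 0.13, adjusted p = 4.70e-05). The E16.5 values were 0.669, 0.760 and 0.703 CPM in mutants, against 3.26, 4.13 and 3.36 CPM in controls (log2 fold change -2.31, SE 0.20, adjusted p = 7.15e-05). The mutants thus held 32.2% of the control level at E14.5 and 19.8% at E16.5. The E16.5 mutant libraries rest on 57 to 78 counts each. The difference between the ages was -0.71 (SE 0.21, adjusted p = 0.0282), a call lost when any 1 of 7 libraries was left out (adjusted p of 0.0618 to 0.0835) and without E16.5 mutant libraries 1 and 3 (-0.58, adjusted p = 0.263).

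Smpd3 encodes neutral sphingomyelinase 2, which releases phosphocholine, the substrate of Phospho1, from sphingomyelin. Its loss in mice leaves bone poorly mineralised. Smpd3 was at 119, 134 and 128 CPM in E14.5 mutants, against 382, 303 and 361 CPM in E14.5 controls (log2 fold change -1.46, SE 0.09, adjusted p = 9.81e-06). All mutant libraries lay well below all controls. By E16.5 it stood at 43.1, 22.7 and 33.5 CPM in mutants, against 53.8, 58.3 and 60.6 CPM in controls (log2 fold change -0.77, SE 0.20, adjusted p = 0.0227). The E16.5 groups did not overlap, but the mutants spread widely, with a coefficient of variation of 30.8%, against 5.94% in controls.

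The order of the E16.5 mutant libraries in Smpd3, library 1 highest and library 2 lowest, was also their order in the neuron and retina marker sums. Smpd3 is also expressed in neurons. With library 2 as the lone E16.5 mutant, assumed to vary like the controls, the log2 fold change of Smpd3 was -1.34 (adjusted p = 3.77e-05), close to the E14.5 value, and the difference between ages was 0.14 (adjusted p = 0.623), against 0.66 (adjusted p = 0.0658) with all libraries. Without mutant library 2 the E16.5 log2 fold change was -0.56. At E16.5 the test no longer passed once control library 1 (adjusted p = 0.0551), control library 2 (0.0693), control library 3 (0.0541) or mutant library 3 (0.0549) was left out. The part of the neural markers in the Smpd3 level was not tested beyond these values.

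**Figure D3:**
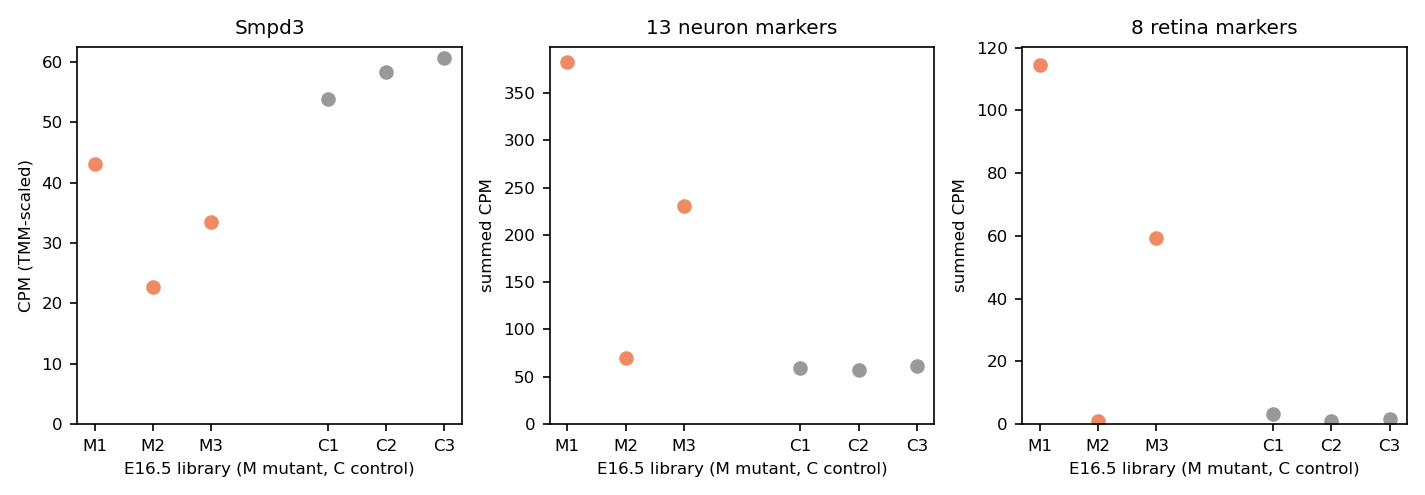
Smpd3 and the summed levels of 13 neuron and 8 retina markers, in CPM on linear axes, in each E16.5 library (M, mutant; C, control; 1 point per library). Mutant library 1 is highest of the mutants in all 3 panels, at 43.1 CPM of Smpd3, and library 2 lowest, at 22.7 CPM, with marker sums near those of the controls.

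Phospho1, Ifitm5 and Slc13a5 kept close company. Ifitm5 encodes a small membrane protein restricted to osteoblasts during mineralisation, and a recurrent mutation of it in humans causes a form of osteogenesis imperfecta. Slc13a5 encodes a sodium-coupled carrier that brings citrate into the cell, and citrate is a major organic part of bone mineral. Across the 12 libraries, the log2 CPM of Phospho1 had a Pearson r of 0.998 with both Ifitm5 and Slc13a5, and Ifitm5 with Slc13a5 one of 0.995. These points share the step between the ages, so the values are a description only.

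Ifitm5 was at 24.7, 21.8 and 24.2 CPM in E14.5 mutants, against 86.7, 64.1 and 72.3 CPM in E14.5 controls, with no overlap (log2 fold change -1.66, SE 0.11, adjusted p = 1.17e-05). In the E16.5 palate it was at 2.52, 3.21 and 3.32 CPM in mutants, against 14.6, 15.9 and 13.5 CPM in controls (log2 fold change -2.27, SE 0.14, adjusted p = 1.29e-05). The mutants held 31.7% of the control level at E14.5 and 20.5% at E16.5. The difference between the ages was -0.63 (SE 0.17, adjusted p = 0.0202). That call was lost without E14.5 mutant library 1 (adjusted p = 0.0588), E16.5 control library 2 (0.0631), E16.5 mutant library 1 (0.0646), or E16.5 mutant libraries 1 and 3 together (0.153).

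Slc13a5 was at 21.6, 23.9 and 22.6 CPM in E14.5 mutants, against 73.3, 63.6 and 76.2 CPM in E14.5 controls, with the groups far apart (log2 fold change -1.65, SE 0.08, adjusted p = 2.43e-06). Its E16.5 levels were 2.15, 2.43 and 2.20 CPM in mutants, against 10.04, 12.6 and 12.3 CPM in controls (log2 fold change -2.34, SE 0.14, adjusted p = 1.15e-05). The mutants held 32.0% of the control level at E14.5 and 19.4% at E16.5. The difference between the ages was -0.73 (95% interval -1.03 to -0.42, adjusted p = 0.00303). Without E16.5 mutant libraries 1 and 3 it was -0.59 (adjusted p = 0.0734).

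The promoter windows of these 3 genes are shown because the genes moved together, beside that of Enpp1, which did not move with genotype. Each line gives the 250 bases before an annotated transcription start, 5′ to 3′ on the gene's strand, from RefSeq on GRCm38.p6, matched by symbol, since the counts were made on mm9. Capitals mark the 4 letter patterns searched on both strands. They are TGTGGT, a RUNX core that reads ACCACA on the other strand; TGANTCA, the AP-1 element; GGGCGG, a GC box that reads CCGCCC on the other strand; and TATAAA, the TATA box, which reads TTTATA on the other strand. Overlapping matches of the GC box run into each other. Slc13a5 has a pair of annotated starts.
Phospho1 (chr11:95824250-95824499, plus strand): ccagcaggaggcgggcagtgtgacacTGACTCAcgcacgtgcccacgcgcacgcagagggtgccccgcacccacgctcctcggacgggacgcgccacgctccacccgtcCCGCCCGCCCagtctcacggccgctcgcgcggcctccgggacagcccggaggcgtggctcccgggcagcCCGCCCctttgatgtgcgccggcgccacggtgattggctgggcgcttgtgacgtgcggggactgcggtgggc
Ifitm5 (chr7:140950244-140950493, minus strand): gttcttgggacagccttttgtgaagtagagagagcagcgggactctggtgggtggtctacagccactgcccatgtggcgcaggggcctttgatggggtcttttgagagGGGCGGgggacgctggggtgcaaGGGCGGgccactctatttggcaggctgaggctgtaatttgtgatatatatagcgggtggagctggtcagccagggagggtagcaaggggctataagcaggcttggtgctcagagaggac
Slc13a5 (chr11:72266605-72266854, minus strand): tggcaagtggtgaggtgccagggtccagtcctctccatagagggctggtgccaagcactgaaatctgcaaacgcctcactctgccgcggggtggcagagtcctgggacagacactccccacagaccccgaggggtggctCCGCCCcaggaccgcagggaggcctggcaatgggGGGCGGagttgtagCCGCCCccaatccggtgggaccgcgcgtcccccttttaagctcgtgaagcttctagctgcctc
Slc13a5 (chr11:72267162-72267411, minus strand): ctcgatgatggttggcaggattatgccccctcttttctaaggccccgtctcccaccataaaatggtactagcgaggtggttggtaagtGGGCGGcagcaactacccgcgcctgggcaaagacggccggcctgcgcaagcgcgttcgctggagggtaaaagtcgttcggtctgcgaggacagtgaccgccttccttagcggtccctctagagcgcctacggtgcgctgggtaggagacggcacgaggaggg
Enpp1 (chr10:24712160-24712409, minus strand): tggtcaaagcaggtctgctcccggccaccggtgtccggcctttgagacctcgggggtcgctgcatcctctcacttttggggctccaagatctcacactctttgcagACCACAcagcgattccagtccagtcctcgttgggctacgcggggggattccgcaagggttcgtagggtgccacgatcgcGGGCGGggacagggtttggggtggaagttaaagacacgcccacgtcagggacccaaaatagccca

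No RUNX letters lay in the windows of Phospho1, Ifitm5 or Slc13a5, and 1 match lay in that of Enpp1, beginning at position -144 counted from the start. Among the 8 genes with a window in the table, which have 11 windows between them, the RUNX letters were in those of Enpp1 and of Slc20a1, at position -77. Of 32851 RefSeq windows of this length, 14.0% held the RUNX letters, 6.75% the AP-1 letters, 32.7% the GC box and 12.4% the TATA letters. The AP-1 letters occurred in the Phospho1 window, the GC box in all 5 windows shown, and the TATA letters in none of them. A match is a description of letters, and its absence in 250 bases says nothing of more distant sites.

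Phex is an endopeptidase of the osteoblast and osteocyte surface that breaks down peptides of the acidic bone matrix proteins, and its loss causes X-linked hypophosphataemia in humans and mice. Phex was at 18.2, 14.99 and 18.4 CPM in E14.5 mutants, against 64.2, 46.4 and 57.0 CPM in E14.5 controls. The groups were far apart, and its log2 fold change of -1.70 (SE 0.12, adjusted p = 2.42e-05) was the lowest of the 10 genes at that age. The E16.5 values were 6.95, 5.90 and 7.42 CPM in mutants, against 5.34, 7.56 and 7.61 CPM in controls. These groups overlapped throughout (log2 fold change 0.0096, 95% interval -0.38 to 0.40, adjusted p = 0.974). The mutant effect differed between the ages by 1.68 (95% interval 1.21 to 2.16, adjusted p = 1.78e-04), the largest difference among the 10 genes, and it was called in all 22 other settings tried.

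Phex lies on the X chromosome. The sex markers of the groups turned round between the ages: of 5 such genes, 4 were higher and 1 lower in mutants at E14.5, and 1 higher and 4 lower at E16.5. Xist had a log2 fold change of -0.68 at E14.5 and 1.18 at E16.5, a difference of 1.84. The part of embryo sex in the Phex values was not tested. Phex fell with age by 1.35 in mutants and by 3.03 in controls on the log2 scale, so the control decline was the larger.

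Enpp1 and Ank supply the inhibitor. Enpp1 makes pyrophosphate from nucleoside triphosphates outside the cell, and Ank carries pyrophosphate or its source nucleotides out of the cell. Neither differed with genotype beyond the spread. Enpp1 was at 152, 164 and 172 CPM in E14.5 mutants, against 154, 151 and 183 CPM in E14.5 controls (log2 fold change 0.0001, 95% interval -0.18 to 0.18). By E16.5 it stood at 20.0, 28.6 and 25.4 CPM in mutants, against 23.6, 22.8 and 24.3 CPM in controls (log2 fold change 0.09, 95% interval -0.18 to 0.36). Both pairs of groups overlapped, and the intervals leave room for changes of up to 1.13-fold at E14.5 and 1.28-fold at E16.5 upward.

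Ank was at 44.5, 48.9 and 45.3 CPM in E14.5 mutants, against 42.0, 48.9 and 46.4 CPM in E14.5 controls (log2 fold change 0.014, 95% interval -0.15 to 0.17). In the E16.5 palate it was at 79.8, 69.9 and 75.5 CPM in mutants, against 66.5, 68.5 and 70.6 CPM in controls (log2 fold change 0.16, 95% interval -0.01 to 0.32, adjusted p = 0.150). At E16.5 the highest control lay just above the lowest mutant, so the groups touched. Enpp1 and Ank parted with age: Enpp1 was 6.60-fold lower in E16.5 than in E14.5 mutants and 6.91-fold lower in E16.5 than in E14.5 controls, while Ank was higher at E16.5 by 0.70 in mutants and 0.58 in controls on the log2 scale (edgeR called all 4 changes).

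Ratios within a library do not depend on scaling, so the phosphatase was set against the 2 pyrophosphate genes. The log2 ratio of Alpl to Enpp1 counts was 0.067, 0.15 and 0.05 in E14.5 mutants, against 1.31, 1.19 and 1.04 in E14.5 controls, a difference of -1.09. At E16.5 this ratio was 1.92, 1.38 and 1.66 in mutants, against 2.06, 2.03 and 2.02 in controls, a difference of -0.39. The log2 ratio of Alpl to Ank counts averaged 1.90 ± 0.07 in E14.5 mutants and 3.01 ± 0.18 in E14.5 controls, and 0.03 ± 0.10 in E16.5 mutants and 0.50 ± 0.06 in E16.5 controls (SD, n = 3 each). In all 4 of these comparisons every mutant library lay below every control library, and the exact two-sided permutation p was 0.1, the smallest that 3 against 3 allows (0.15 after adjustment over the 6 ratio tests). With age the 2 ratios went opposite ways: Alpl to Enpp1 was higher at E16.5 than at E14.5 in both genotypes, and Alpl to Ank lower, as Enpp1 fell more than Alpl and Ank rose.

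**Figure D4:**
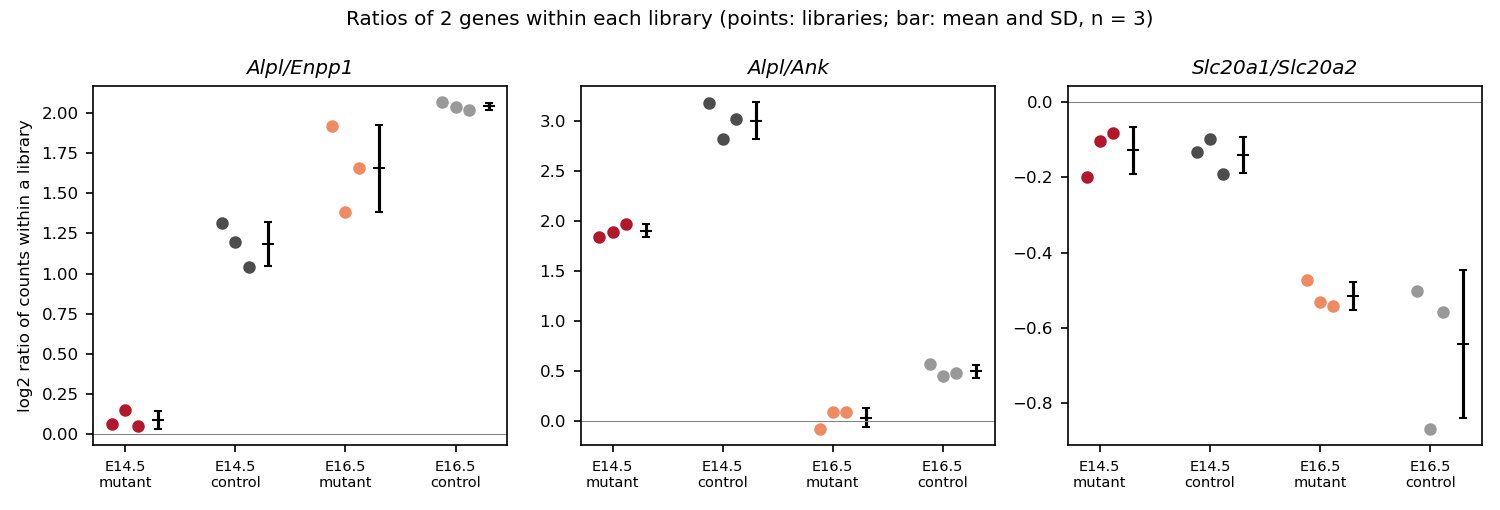
Log2 ratio of counts of 2 genes within each library, 1 point per library with mean and SD (n = 3), mutants left of controls at each age. Every mutant point lies below every control point for Alpl over Enpp1 and Alpl over Ank at both ages, and the groups overlap for Slc20a1 over Slc20a2.

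Slc20a1 and Slc20a2 encode PiT1 and PiT2, sodium-phosphate cotransporters found in most cell types. Slc20a1 was at 65.5, 65.7 and 65.8 CPM in E14.5 mutants, against 54.7, 59.2 and 56.5 CPM in E14.5 controls. The mutants were nearly equal to each other and all above the controls, but the change was small (log2 fold change 0.21, SE 0.05, adjusted p = 0.0452). The call was lost when any 1 of the 6 libraries was left out (adjusted p of 0.0563 to 0.166) and with all 12 libraries in 1 fit (0.134). The E16.5 values were 48.6, 52.2 and 50.8 CPM in mutants, against 51.8, 41.2 and 49.0 CPM in controls, with overlap (log2 fold change 0.12, 95% interval -0.09 to 0.32).

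Slc20a2 was at 75.2, 70.5 and 69.6 CPM in E14.5 mutants, against 60.0, 63.4 and 64.5 CPM in E14.5 controls. The groups did not overlap, yet the log2 fold change of 0.20 (SE 0.06, adjusted p = 0.0775) missed the threshold, which DESeq2 passed (adjusted p = 0.0420). By E16.5 it stood at 67.5, 75.4 and 74.0 CPM in mutants, against 73.4, 75.3 and 72.2 CPM in controls, with overlap (log2 fold change -0.0035, 95% interval -0.15 to 0.14). The log2 ratio of Slc20a1 to Slc20a2 averaged -0.13 ± 0.06 in E14.5 mutants and -0.14 ± 0.05 in E14.5 controls, and -0.52 ± 0.04 in E16.5 mutants and -0.64 ± 0.20 in E16.5 controls (SD, n = 3 each). The groups overlapped at both ages (exact two-sided permutation p of 0.8 at E14.5 and 0.4 at E16.5, 0.8 and 0.48 after adjustment).

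The change with age was called for 9 of the 10 genes in mutants, 8 lower and 1 higher at E16.5, against 51.6% of all 17550 genes called, 24.4% lower and 27.2% higher. In controls it was called for all 10 genes, 8 lower and 2 higher, against 66.4%, 32.1% lower and 34.3% higher, so being called sets them apart little. The ages did not overlap for 9 genes in mutants, against 56.3% of all genes, nor for 10 in controls, against 72.0%. The median log2 change of the 10 was -1.64 in mutants and -2.47 in controls, against 0.0032 and -0.0028 over all genes. Slc13a5 and Phospho1 fell most in mutants, with log2 changes of -3.33 and -3.298, and Phex, at -3.03, most in controls. Slc20a1 fell by 0.38 in mutants and 0.26 in controls. Slc20a2 was 1.18-fold higher at E16.5 than at E14.5 in controls (adjusted p = 0.00312) and did not pass in mutants (log2 change 0.011, adjusted p = 0.883). Epithelial markers summed to 1323 to 1390 CPM in mutants and 792 to 1302 CPM in controls at E14.5, and to 4897 to 7956 CPM in mutants and 7504 to 8206 CPM in controls at E16.5. The part of that rise in epithelial marker RNA in the lower levels at E16.5 was not tested.

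**Figure D5:**
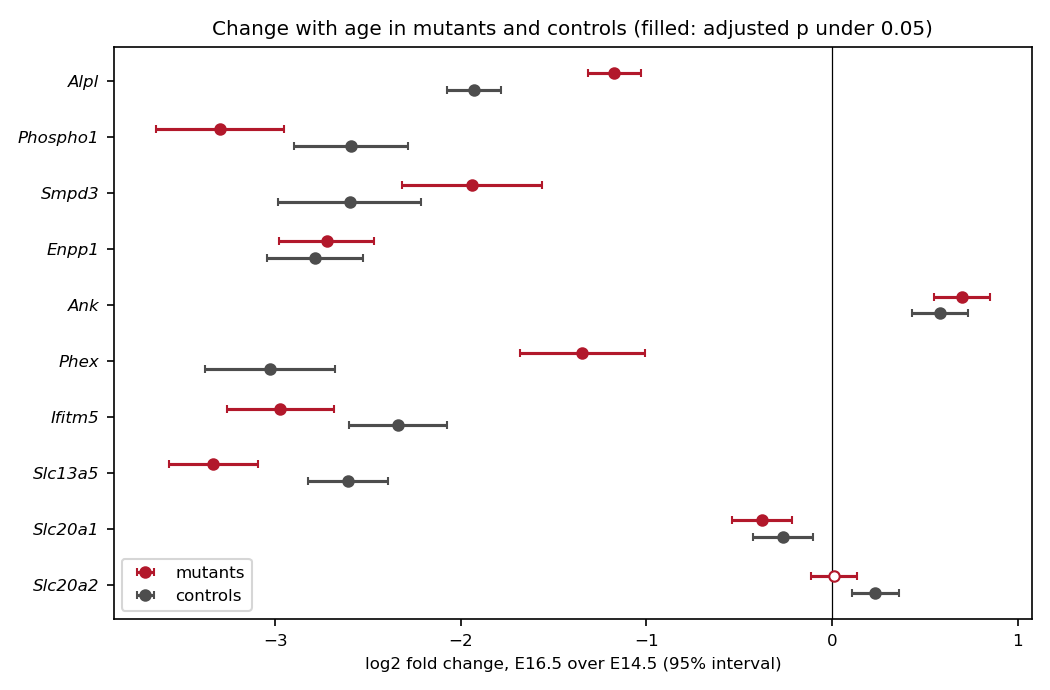
Log2 fold change of E16.5 over E14.5 with 95% intervals, in mutants and in controls, from 1 fit of all 12 libraries. Filled points passed an adjusted p under 0.05. Ank lies above 0 in both genotypes. The mutant and control intervals stand apart for Alpl and Phex, whose fall was smaller in mutants, and for Phospho1, Ifitm5 and Slc13a5, whose fall was larger.

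Across the 4 groups, Alpl, Phospho1, Smpd3, Ifitm5 and Slc13a5 shared 1 order: highest in E14.5 controls, then E14.5 mutants, E16.5 controls and E16.5 mutants, with no overlap between neighbours. Phex had the same first 2 places, with the E16.5 groups overlapping. Enpp1 had a high pair at E14.5 and a low pair at E16.5, each overlapping within itself, and Ank the reverse. Slc20a1 was highest in E14.5 mutants, then in E14.5 controls, with the E16.5 groups overlapping below. Slc20a2 was lowest in E14.5 controls, and the other 3 groups overlapped. Levels of different genes were set side by side per kilobase of exon. The length was that of all GENCODE exons of a gene merged, on another genome build than the counts. Such levels compare only roughly. Mean E14.5 levels of Ifitm5 were 30.8 CPM per kb in mutants and 97.3 in controls. Those of Alpl were 42.9 and 91.3, and of Smpd3 24.3 and 66.6. The other 7 genes had 2.73 to 15.9 CPM per kb in E14.5 mutants and 8.88 to 15.9 in E14.5 controls. By E16.5 the highest in mutants were Ank at 20.8 CPM per kb and Alpl at 19.04. In controls they were Alpl at 24.0, Ifitm5 at 19.2 and Ank at 19.0. Values this close set no order between genes. Exons of Phospho1, Smpd3, Slc13a5 and Slc20a2 overlap a counted gene on the other strand (Abi3, Prmt7, 1700051A21Rik and Smim19), Phospho1 and Ank also overlap Zfp652 and Mir7117 on the same strand, and the strand setting of the counting is not given in the sources used here, so reads of such overlaps cannot be told apart.

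The genes whose log2 CPM ran most like each of the 10 were sought among 12842 genes over the 12 libraries. Kazald1 and Col11a2 were among the closest 3 of Phospho1, Ifitm5 and Slc13a5 alike (Pearson r of 0.992 to 0.995), joined by Sp7 for Phospho1 (0.990) and Slc13a5 (0.994) and by Ibsp for Ifitm5 (0.991). Closest to Alpl was Ano6 (0.995), to Smpd3 Slc8a3 (0.997), to Phex Ano1 (0.993), to Enpp1 Ntn3 (0.995) and to Ank Gldc (0.986). Slc20a1 and Slc20a2 had looser companions, Fadd (0.973) and Pax1 (0.936). All these values carry the step between the ages, and they describe 12 libraries of 4 groups.

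Over all genes tested, 2.95% were called higher and 4.57% lower in mutants at E14.5, and 12.2% and 15.7% at E16.5, beside which the counts in the wider lists stand. Of 20 further genes of phosphate and pyrophosphate handling, 1 was higher and 5 lower in mutants of 17 tested at E14.5, and 2 higher and 5 lower of 17 tested at E16.5. Their median log2 fold change was -0.21 at E14.5 and -0.16 at E16.5, against -1.27 and -0.16 for the 10 genes, and the lists were not tested against each other. Dmp1, an acidic matrix protein of osteocytes whose loss causes phosphate wasting, was at 5.17, 2.44 and 4.15 CPM in E14.5 mutants, against 36.5, 50.5 and 47.7 CPM in E14.5 controls (log2 fold change -3.52, adjusted p = 1.17e-05), and was 8.03-fold lower in E16.5 mutants. Mepe, a matrix protein that carries an acidic peptide cleaved by Phex, was 2.99-fold lower in E14.5 and 5.88-fold lower in E16.5 mutants, at levels of at most 3.31 CPM. Vdr, the vitamin D receptor, was 1.91-fold lower in E14.5 mutants (adjusted p = 4.65e-04) and did not pass at E16.5. Slc34a2, an epithelial sodium-phosphate cotransporter, was at 4.07, 3.89 and 5.23 CPM in E16.5 mutants, against 9.20, 9.19 and 9.91 CPM in E16.5 controls (adjusted p = 8.18e-04), and was too low to test at E14.5.

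Of 13 genes of matrix vesicles and phosphocholine supply, all tested, 1 was higher and 3 lower in mutants at E14.5, and 2 higher and 3 lower at E16.5, where the counts are near those shares of all genes. Sgms2, a sphingomyelin synthase of the plasma membrane that makes the substrate of Smpd3, was at 54.2, 58.9 and 64.9 CPM in E14.5 mutants, against 199.97, 154 and 187 CPM in E14.5 controls (log2 fold change -1.60, adjusted p = 1.13e-05), and it was 2.76-fold lower in E16.5 mutants. Enpp6, a choline-specific phosphodiesterase, was 4.38-fold lower in E14.5 mutants (adjusted p = 0.00255). Smpd1, the lysosomal acid sphingomyelinase, was 1.17-fold lower at E14.5 and 1.29-fold lower at E16.5. Anxa1, an annexin abundant in epithelium, was 1.29-fold higher in E14.5 mutants and 1.30-fold lower in E16.5 mutants, a difference of -0.77 on the log2 scale (adjusted p = 0.00320).

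Of 8 genes of citrate handling, Slc39a14, a zinc and manganese importer, was called alone: it was 1.27-fold lower in E14.5 mutants and 1.24-fold higher in E16.5 mutants (difference 0.64, adjusted p = 0.00164). None of the 3 tested zinc transporters that load alkaline phosphatase was called, and 3 other alkaline phosphatase genes were too low to test. Of 5 tested inhibitors of mineralisation, 2 were lower at both ages. Spp1, osteopontin, was at 16.4, 4.71 and 10.8 CPM in E14.5 mutants, against 87.9, 206 and 130.0 CPM in E14.5 controls (log2 fold change -3.73, adjusted p = 4.55e-04), and Fetub, a relative of the serum protein fetuin-A, was 4.18-fold lower. Of 5 tested relatives of Ifitm5, Ifitm3 was 1.25-fold higher in E14.5 mutants and Ifitm1 2.19-fold lower in E16.5 mutants, so no other member of the family was lower in mutants at both ages.

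The authors' deposited table called the same 6 genes lower at E14.5 and the same 5 at E16.5. At E14.5 the authors' deposited table also had Slc20a1 (adjusted p = 0.0158) and Slc20a2 (adjusted p = 0.0419) higher. Its log2 fold changes of Alpl were -1.04 and -0.30, and those of Phospho1 -1.39 and -2.12, at E14.5 and E16.5 in the authors' deposited table. DESeq2 run here gave -1.09 and -0.31 for Alpl and -1.64 and -2.31 for Phospho1, all farther from 0. The DESeq2 adjusted p-values were close, for Phospho1 at E14.5 1.79e-31 as deposited and 2.09e-31 here. The deposited fold changes may thus be another measure of size, which the sources used here do not state.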

How the data were processed

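The authors aligned reads to mm9 with HISAT2, counted them per gene with featureCounts and deposited raw counts per library, per the submitters' processing notes. Versions, annotation and strand setting are not given in the sources used here. From the authors' deposited DESeq2 tables of each comparison, 2 columns were used: log2 fold change and adjusted p-value. In the whole-series tables, 24 per-sample columns were not used, and 12 of them repeat the counts used.

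The deposited counts went into edgeR 4.0.16 under R 4.3.3 (TMM, filterByExpr, quasi-likelihood). Genotype was tested within each age on 6 libraries. The difference between ages, and the change with age, came from 1 fit of 12 libraries with 4 group means. Ratios used a pseudocount of 0.5. The edgeR tests of genotype and of the difference between ages were also run on simulated counts with known fold changes. Those counts held no shift shared by libraries numbered 3 and no neural RNA in single libraries. They therefore say nothing of how the tests fare with such features. The 10 genes, the lists, the named genes (the 10, up to 3 called genes of each other list and age by fold, the 3 closest in pattern) and the alternatives were chosen with earlier results of these data known. Alternatives used DESeq2 1.42.0, limma 3.58.1 (voom), other scaling and filters, a block for replicate number and libraries left out.

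Same-numbered libraries of the E16.5 groups deviated together (r of 0.105, 0.161 and 0.222 over 17550 genes), and those of the E14.5 groups less so (0.0193, 0.0445 and 0.16). Libraries numbered 3 also did so between the ages (0.158 in controls, 0.159 in mutants). Over 13463 genes with mean log2 CPM above 1, r was 0.559 to 0.695 for libraries numbered 3. It was 0.0566 to 0.241 for those numbered 1 and 2. Libraries numbered 3 thus stood apart in all 4 groups. These values cannot show whether the numbers also pair libraries within an age, and the main test took no pairing. Reads carried no molecular identifiers, so counts may include copies of 1 molecule.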

Additional observations from a re-analysis of the deposited data

Results flagged for a closer look

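The mutant effect differed between E16.5 and E14.5, by a test of the difference itself (edgeR, 12 libraries), for 5 genes. As log2 fold change at E16.5 minus that at E14.5, it was 0.76 for Alpl and 1.68 for Phex, whose effect was smaller at E16.5. It was -0.71 for Phospho1, -0.63 for Ifitm5 and -0.73 for Slc13a5, whose effect was larger at E16.5. The calls for Alpl and Phex were kept in all 22 other settings, that for Slc13a5 in 20, that for Ifitm5 in 16 and that for Phospho1 in 12.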

How the results depend on the processing

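The 6 genes called lower at E14.5 were called in each of the 16 other settings, and at E16.5 Alpl, Phospho1, Ifitm5 and Slc13a5 in every setting that tested them. A filter of at least 5 CPM in 3 samples left Phospho1 untested at E16.5. With 1 library left out there were 6 called genes in the E14.5 comparison, from 4 up to 5 in the E16.5 one, 3 to 6 for the difference between ages, 10 for age in controls and 9 for age in mutants. The count for the difference, 5, became 3 with limma-voom, 2 in replicates 1 and 2 alone and 2 without E16.5 mutant libraries 1 and 3. With the replicate block, the E16.5 calls were the same, Slc20a2 was added at E14.5 (adjusted p = 0.0298), and Smpd3 (0.0456) and Slc20a2 (0.0315) were added for the difference, giving 7. A term for the replicates numbered 3 added Slc20a2 at E14.5 (0.0239) and for the difference (0.0353).

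Signs turned for uncalled values near 0. Enpp1 at E14.5 was -0.0033 with DESeq2 size factors, -0.0038 with DESeq2, -0.0011 without a filter and -0.0546 to 0.0941 over all settings. Phex at E16.5 was -0.2034 without mutant libraries 1 and 3, -0.0153 in the fit of 12 libraries and -0.1389 to 0.096 with 1 library left out. Slc20a2 at E16.5 was 0.0001 with DESeq2 size factors, 0.022 with upper-quartile factors, 0.0003 with DESeq2 and 0.042 without libraries 1 and 3, and with age in mutants -0.0142 with upper-quartile factors and -0.0057 in replicates 1 and 2 alone. With 1 library left out, Ank at E14.5 spanned -0.0449 to 0.0596, Enpp1 -0.0298 to 0.2102 at E16.5 and -0.029 to 0.219 for the difference, and Slc20a2 at E16.5 -0.033 to 0.0337. The Alpl to Enpp1 difference ranged over -1.16 to -1.03 (E14.5) and -0.52 to -0.25 (E16.5), that of Alpl to Ank over -1.20 to -1.02 and -0.49 to -0.41, and that of Slc20a1 to Slc20a2 over -0.012 to 0.0492 and 0.0149 to 0.1978. With 3 libraries a group, no permutation p can pass 0.05, and single libraries decide calls close to the threshold. The causes were not tested.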
